A study of Homo sapiens with 4 samples.

Results

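The neutrophil-attracting CXC chemokines measured here were CXCL1, CXCL2, CXCL3, CXCL5, CXCL6 and CXCL8, 6 genes of 25121 with a symbol on the arrays. They were chosen by name, with earlier results of these data known, and do not hold every ligand of the class, since PPBP is described apart from them. Every probe whose accession matched one of the 6 was used, which gave 8 probes out of 35080 matched probes. CXCL1 and CXCL2 had 2 probes each, and the other genes had 1. RNA from the human prostate cancer cell lines PC3 and DU145, both androgen-independent and grown in RPMI1640 with 10% FBS, was hybridized to 4 one-colour Agilent arrays. The 4 conditions were PC3-shC and DU145-shC, which carried an shRNA against luciferase, a gene human cells lack, and PC3-shESS2 and DU145-shESS2, which carried an shRNA against ESS2, a nuclear protein that associates with spliceosomes. The study's methods describe PC3 cells stably selected with puromycin after plasmid transfection, and elsewhere call the cells transduced, as the labels do for all 4 lines, and neither source says whether a line is a clone or a pool. Each condition had 1 array, so no difference between 2 arrays has a replicate check and none is given a p-value.

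These chemokines carry a Glu-Leu-Arg motif just before the first cysteines of the mature protein, and they draw and activate neutrophils through the receptors CXCR2 and, for CXCL6 and CXCL8, also CXCR1. Epithelial and stromal cells make them when interleukin-1, TNF or microbial products activate NF-κB, the transcription factor family that binds κB elements in their promoters. Their mRNAs are short-lived, because AU-rich elements mark them for decay. In carcinomas such ligands are known for recruiting myeloid cells and for promoting the growth of blood vessels.

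All 6 genes lie together on chromosome 4, within a span of 358627 bases in GRCh38.p14. CXCL1, CXCL6 and CXCL8 are read on the plus strand, and CXCL2, CXCL3 and CXCL5 on the minus strand. The letters of a κB core, GGAATTTCC, occurred in the 250 bases before the annotated start of 6 of the 6 genes, searched on both strands, and in 145 of 35116 promoters in all (0.413%). This exact string was picked knowing the κB elements of these genes, unlike the looser letters used for other factors, so the count is a description and supports nothing. To show where the run sits, the 140 bases directly before each start are printed here, 5′ to 3′ along the gene, from RefSeq on GRCh38.p14, with the κB core in capitals.
CXCL1 (chr4:73869253-73869392, plus strand): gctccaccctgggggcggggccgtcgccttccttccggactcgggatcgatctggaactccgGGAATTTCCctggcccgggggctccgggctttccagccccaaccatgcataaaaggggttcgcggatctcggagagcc
CXCL2 (chr4:74099196-74099335, minus strand): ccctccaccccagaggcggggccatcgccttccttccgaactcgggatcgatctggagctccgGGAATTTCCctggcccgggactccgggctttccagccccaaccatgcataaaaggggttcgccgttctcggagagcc
CXCL3 (chr4:74038690-74038829, minus strand): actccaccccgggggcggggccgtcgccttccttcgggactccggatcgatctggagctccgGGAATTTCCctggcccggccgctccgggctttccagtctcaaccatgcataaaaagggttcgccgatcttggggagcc
CXCL5 (chr4:73998678-73998817, minus strand): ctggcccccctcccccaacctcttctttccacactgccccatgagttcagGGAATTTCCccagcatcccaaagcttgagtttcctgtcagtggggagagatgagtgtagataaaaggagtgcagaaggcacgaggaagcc
CXCL6 (chr4:73836538-73836677, plus strand): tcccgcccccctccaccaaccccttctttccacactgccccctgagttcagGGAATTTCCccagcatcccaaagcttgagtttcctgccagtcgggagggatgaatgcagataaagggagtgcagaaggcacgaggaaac
CXCL8 (chr4:73740429-73740568, plus strand): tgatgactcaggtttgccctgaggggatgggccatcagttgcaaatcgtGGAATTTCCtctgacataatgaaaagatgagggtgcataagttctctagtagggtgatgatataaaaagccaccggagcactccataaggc

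In CXCL1, CXCL2 and CXCL3 the κB core began 77 or 78 bases before the start, and in CXCL5, CXCL6 and CXCL8 it began 89 to 91 bases before it. Aligned end to end over the 250 bases, the upstream sequences of CXCL5 and CXCL6 were identical in 85.3% of alignment columns and those of CXCL1 and CXCL3 in 81.4%. CXCL2 shared 70.1% with CXCL1 and 73.4% with CXCL3, while CXCL8 shared between 43.9% and 47.9% with each of the others. Genes this similar are not independent observations, and whether a probe also binds mRNA of a close relative was not tested. A TATA-type run, ATAAAA, stood 30 or 31 bases before the start of 5 genes (all but CXCL6). Anywhere in the 250 bases, on either strand, these letters occurred in 14.8% of all promoters. A GC box, GGGCGG, was found in CXCL1, CXCL3 and CXCL6 and in 42.6% of all promoters. CXCL8 held the AP-1 letters TGANTCA, as did 6.57% of all promoters. CXCL2 held the C/EBP letters TTGCNNAA, as did 9.05%. These are matches of letters, none overlapped another, and the arrays did not measure binding.

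**Figure D1:**
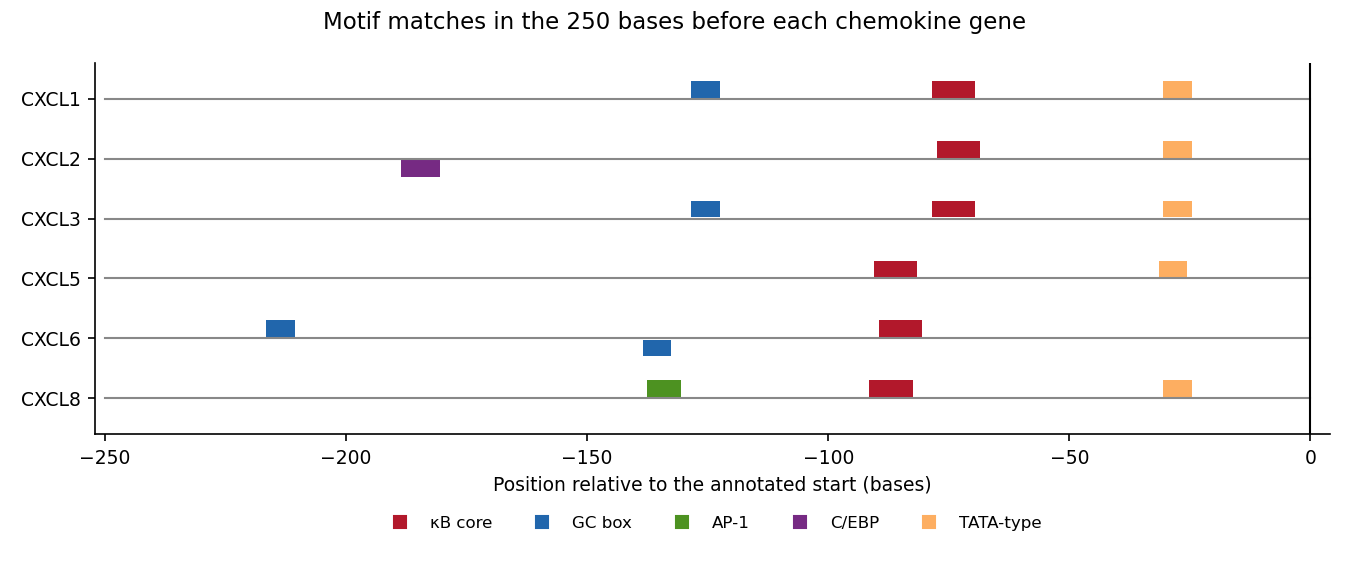
Matches of 5 motifs in the 250 bases before the annotated start of each chemokine gene, which is at 0 on the horizontal axis in bases, with boxes above the line on the gene's own strand and boxes below it on the opposite strand. The κB core occurs in all 6 genes, between 91 and 69 bases before the start.

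The probe for ESS2, the gene the shRNA targets, read 0.506 in PC3-shC and 0.185 in PC3-shESS2 cells, and 0.404 in DU145-shC and 0.0794 in DU145-shESS2 cells, in multiples of the 75th percentile of each array, the scale used throughout. Its log2 ratio (ESS2 shRNA over control) was −1.45 in PC3 and −2.35 in DU145, and GAPDH, a housekeeping gene, had ratios of 0.18 and 0.044. Between 50.8% and 52.6% of 60901 non-control spots were well above background on each array, and no spot was saturated. Of 5 epithelial markers, 5 were well above background on every array, though EPCAM, an adhesion molecule, had a log2 ratio of −2.61 in DU145. CTNNA1, which PC3 has lost, was not well above background on the PC3 arrays and read 20.4 in DU145-shC cells. On 282 to 286 probes spotted 10 times, the log2 ratio between spots at the same place on 2 arrays had a median SD of 0.047 to 0.056, which covers spots only.

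All 8 chemokine probes were well above background on all 4 arrays, each as a single spot with no outlier flag. CXCL1, the ligand first described as melanoma growth-stimulating activity, read 760.5 in PC3-shC, 257.2 in PC3-shESS2, 24.2 in DU145-shC and 3.25 in DU145-shESS2 cells on the probe that stands for the gene, A_23_P7144. Its second probe, A_33_P3330264, read 173.4, 46.9, 5.52 and 1.27 in the same order. On both probes the PC3-shC array was highest and the DU145-shESS2 array lowest.

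CXCL2, also called GROβ, read 55.5 in PC3-shC, 13.7 in PC3-shESS2, 115.1 in DU145-shC and 43.7 in DU145-shESS2 cells on probe A_23_P315364, which stands for the gene. Its second probe, A_24_P257416, read 73.0, 17.5, 27.8 and 9.86. The probes placed the control cells of the 2 lines in opposite order, DU145-shC above PC3-shC on the first and below it on the second. CXCL3, also called GROγ, read 33.3 in PC3-shC, 8.62 in PC3-shESS2, 0.962 in DU145-shC and 0.564 in DU145-shESS2 cells.

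CXCL5, an epithelial neutrophil activator, read 163.9 in PC3-shC, 73.1 in PC3-shESS2, 0.717 in DU145-shC and 0.803 in DU145-shESS2 cells. CXCL6, the neighbour of CXCL5 in sequence, read 7.53, 3.11, 0.144 and 0.0761, and the dimmest value well above background on the last of these arrays was 0.0374. CXCL8, which is interleukin-8, read 24.1 in PC3-shC, 29.3 in PC3-shESS2, 8.96 in DU145-shC and 1.995 in DU145-shESS2 cells. CXCL8 was the only member with its highest value in PC3-shESS2 cells. Levels of different probes are not set against each other, because probes differ in how strongly they bind.

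**Figure D2:**
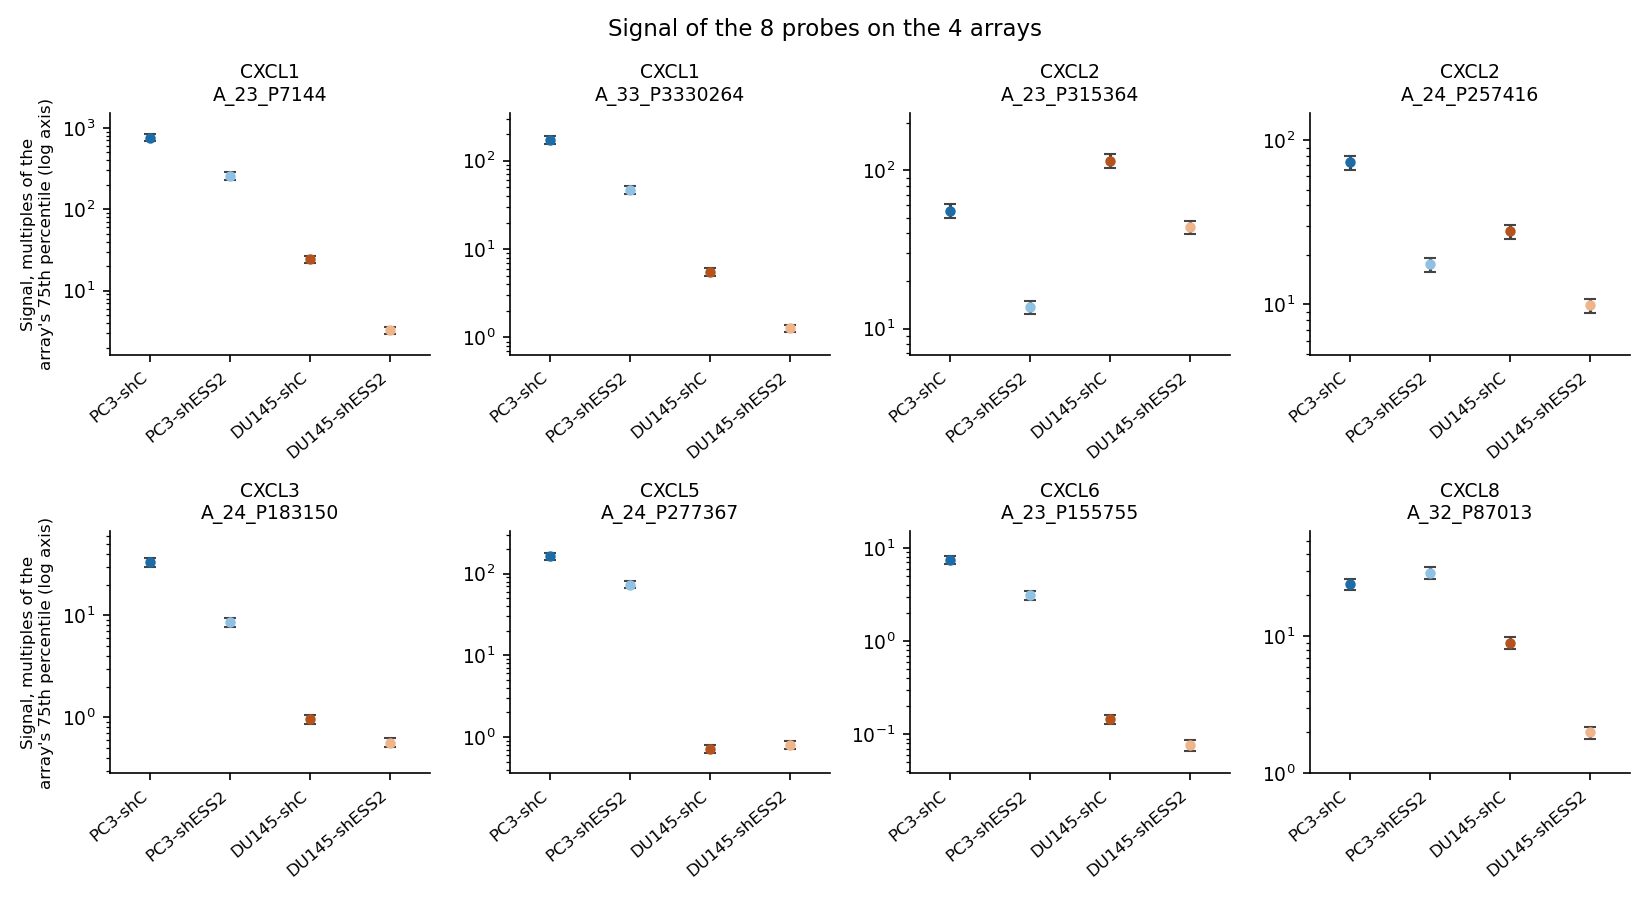
Signal of each of the 8 chemokine probes on the 4 arrays, as multiples of the 75th percentile of the array on a log axis of its own for each probe, with bars for the scanner software's error of the spot (at most 14% of the signal). Of the 8 probes, 7 are lower in PC3-shESS2 than in PC3-shC cells and 7 are lower in DU145-shESS2 than in DU145-shC cells.

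In PC3 cells, 5 of the 6 chemokines were more than 2-fold lower with ESS2 shRNA and none was more than 2-fold higher, whereas 3.87% of 16764 compared genes were more than 2-fold lower and 3.88% more than 2-fold higher. The log2 ratio of the PC3-shESS2 to the PC3-shC signal was −2.02 ± 0.20 for CXCL2, −1.95 ± 0.20 for CXCL3 and −1.56 ± 0.20 for CXCL1. The error is that of the scanner software for both spots together and leaves out culture, labelling and hybridization. CXCL6 had a ratio of −1.28 ± 0.20 and CXCL5 one of −1.16 ± 0.20. CXCL8 was the exception, with a ratio of 0.28 ± 0.20, a 1.21-fold difference. In fold terms, the level of CXCL2 was 4.07-fold lower, that of CXCL3 3.86-fold, that of CXCL1 2.96-fold, that of CXCL6 2.42-fold and that of CXCL5 2.24-fold lower.

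The second probes gave −1.89 for CXCL1 and −2.06 for CXCL2 in PC3, 0.32 and 0.036 log2 units from the first. The members' median log2 ratio was −1.42, and that of all compared genes −0.055. CXCL2 stood at the low end of the genes, with 158 of 16764 lower still, and CXCL5, the smallest of the 5 differences, had 475 genes below it. Median scaling made 4.79% of genes lower and 3.05% higher, and the authors' scaled values gave 3.19% and 4.72%. With normexp background correction the shares were 1.93% and 1.48%. The member count was 5 lower and 0 higher under all 3. In bulk RNA, fewer producing cells and less RNA in each cell cannot be told apart.

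In DU145 cells, 3 of the 6 chemokines were more than 2-fold lower with ESS2 shRNA and none was more than 2-fold higher, against 2.47% and 2.36% of 16842 compared genes. With normexp background correction these shares were 0.458% lower and 0.826% higher, and the member counts were again 3 and 0. CXCL1 had a ratio of −2.90 ± 0.20 on its first probe, a 7.45-fold lower level in DU145-shESS2 than in DU145-shC cells, and 7 of all compared genes were below it. CXCL8 had a ratio of −2.17 ± 0.20, a 4.49-fold lower level, and CXCL2 one of −1.40 ± 0.20, a 2.63-fold lower level. CXCL6 at −0.92 ± 0.26 and CXCL3 at −0.77 ± 0.21 lay below 0 but inside the 2-fold bound, and CXCL5 at 0.16 ± 0.20 lay within its scanner error of 0.

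The second probe of CXCL1 gave −2.12 in DU145, a 4.34-fold lower level with 48 genes below it, so which of CXCL1 and CXCL8 had the lower ratio depended on the probe. The CXCL1 probes lay 0.78 log2 units apart, and 5.31% of 4277 genes with more than 1 probe detected on both DU145 arrays had probes further apart. Both CXCL1 probes passed the 2-fold bound. The second CXCL2 probe gave −1.49. The members' median was −1.16, against −0.022 for all compared genes.

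Member by member, CXCL1 and CXCL2 were more than 2-fold lower with ESS2 shRNA in both lines. CXCL3, CXCL5 and CXCL6 were past 2-fold in PC3 and not in DU145, where CXCL3 and CXCL6 had ratios below 0 and CXCL5 one of 0.16. CXCL8 was past 2-fold in DU145 and not in PC3, where its ratio was 0.28. The log2 ratio in PC3 minus that in DU145 was 2.45 ± 0.29 for CXCL8 and −1.33 ± 0.29 for CXCL5. For CXCL3 this difference was −1.18, for CXCL2 −0.63 and for CXCL6 −0.35. For CXCL1 it was 1.33 on the first probe and 0.23 on the second, so its size rested on the probe. A difference of more than 2-fold between the ratios of the lines was found in 9.61% of 15478 genes compared in both lines. A fit of this difference leaves no residual degree of freedom, and it is given as a value only.

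An additive limma model with terms for the line and for the shRNA, which left 1 residual degree of freedom, gave the knockdown effect across lines a test. After Benjamini-Hochberg adjustment limma called 0 of 17126 genes (0%), and 0 of the 6 chemokines. At an unadjusted p under 0.05 there were 1028 genes and 4 members, CXCL1, CXCL2, CXCL3 and CXCL6. The limma effect was −2.23 log2 units (SE 0.40) for CXCL1 and −1.71 (SE 0.24) for CXCL2. It was −1.36 (SE 0.36) for CXCL3 and −1.10 (SE 0.20) for CXCL6. CXCL8 at −0.94 (SE 0.68) and CXCL5 at −0.50 (SE 0.40) had large errors for their size, since in this fit the difference between lines counts as error. The adjusted p in limma was 0.754 for CXCL1, CXCL2, CXCL3 and CXCL6, 0.769 for CXCL8 and 0.777 for CXCL5. The median effect was −1.23 over the members and −0.039 over all genes tested.

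**Figure D3:**
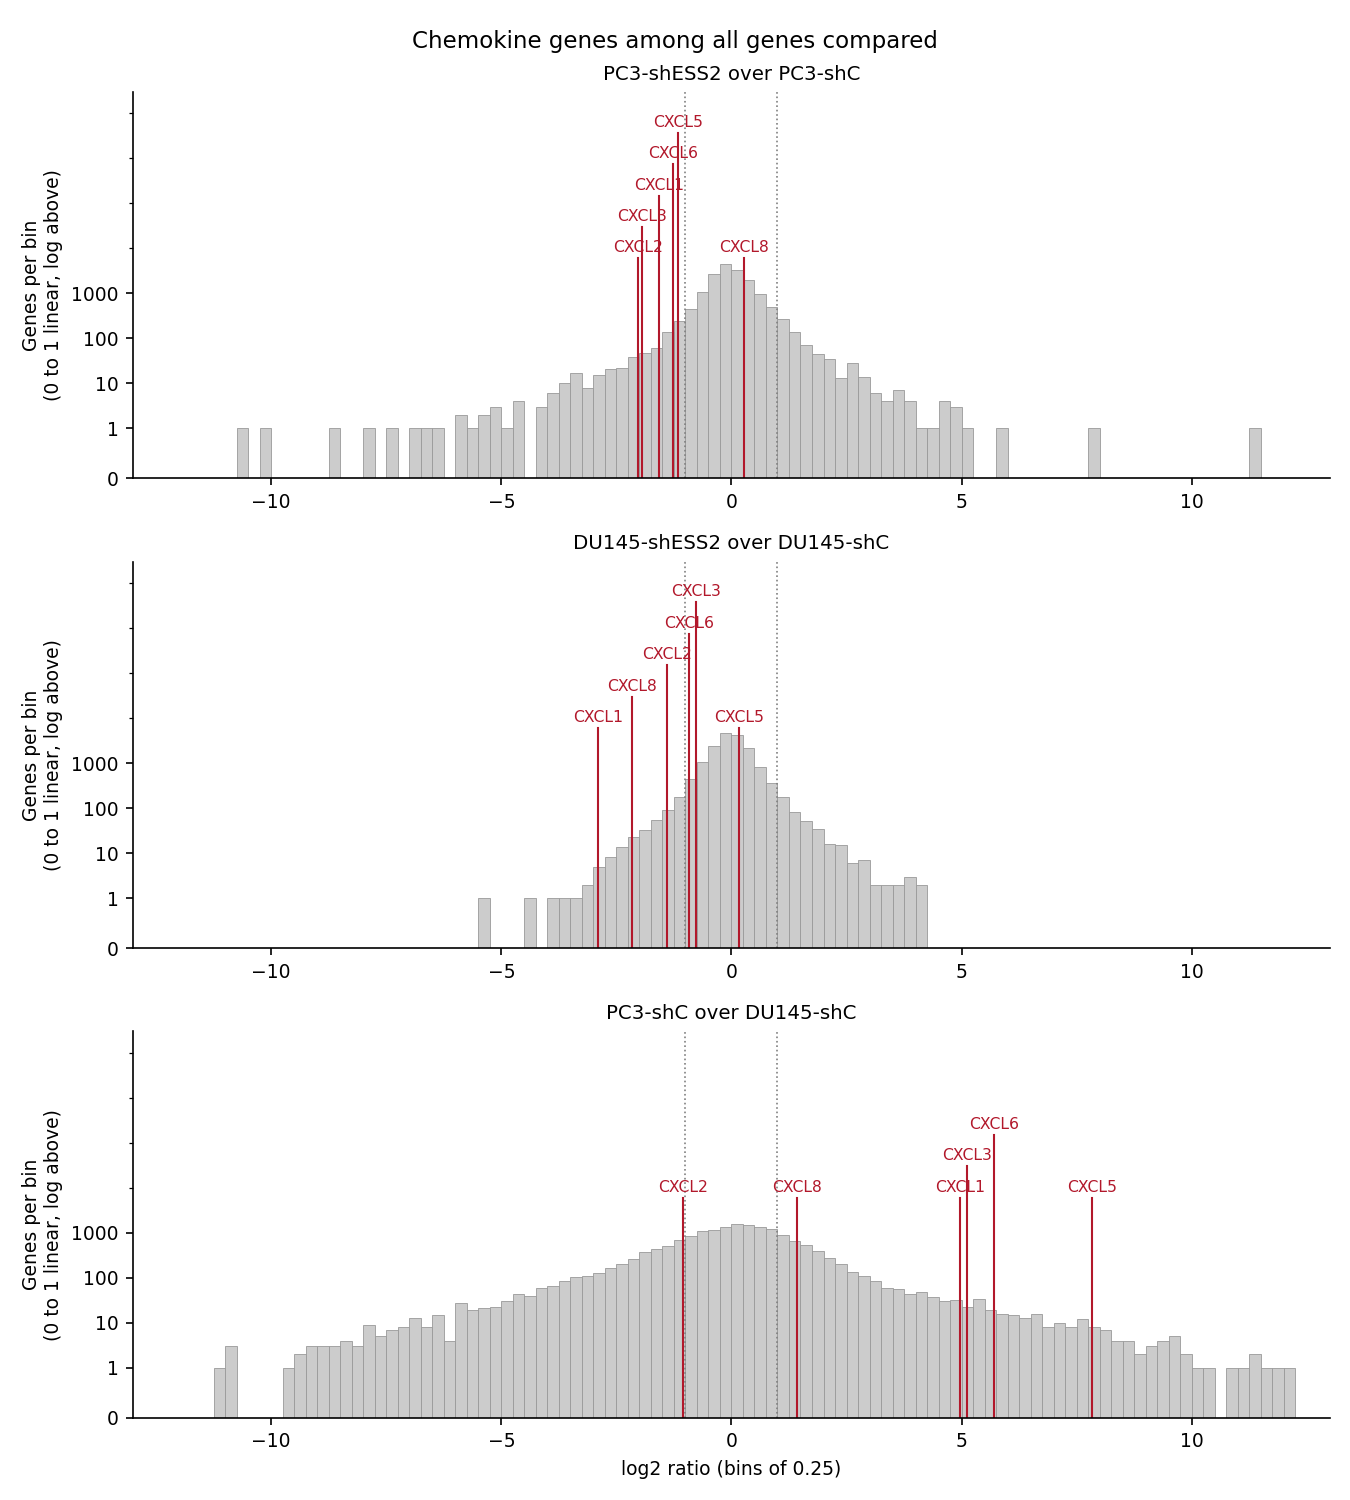
Number of genes by log2 ratio, in bins of 0.25, for each comparison of 2 arrays, with red lines at the 6 chemokines and dotted lines at a 2-fold difference. In PC3, 5 members lie to the left of the lower dotted line, in DU145 3 do, and between the control arrays 4 members lie at ratios of 4.97 or higher.

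Between the control cells, 5 of the 6 chemokines were more than 2-fold higher in PC3-shC than in DU145-shC cells and 1, CXCL2 on 1 of its 2 probes, was more than 2-fold lower, in a comparison where 22.1% of 17475 genes were more than 2-fold higher and 19.9% more than 2-fold lower. CXCL5 had a log2 ratio (PC3-shC over DU145-shC) of 7.84 ± 0.20, a 228.6-fold higher level, and 46 of all compared genes had a higher ratio. CXCL6 had a ratio of 5.70 ± 0.22 (4.37 under normexp), CXCL3 one of 5.11 ± 0.20 and CXCL1 one of 4.97 on both of its probes. CXCL8 had a ratio of 1.43 ± 0.20, a 2.69-fold difference.

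CXCL2 gave −1.05 ± 0.20 on the probe that stands for the gene and 1.39 ± 0.20 on the other. Of 3919 genes with more than 1 probe detected on both control arrays, 5.05% had probes further apart than these, and the median distance was 0.56. With the mean of the 2 probes the CXCL2 ratio was 0.17, so no direction between the lines is given for this gene. The members' median was 5.04, and that of all genes 0.12. Median scaling put the median of all genes at 0.58, with 35.1% of genes higher and 13.6% lower, and the authors' scaled values put it at −0.33, with 13.7% higher and 29.5% lower. With normexp 17.4% were higher and 11.6% lower, and of the members 5 were higher and 0 lower. CXCL1, CXCL3, CXCL5 and CXCL6 stayed above 4 log2 units under every alternative tried. CXCL8 was past 2-fold under all but quantile normalization (0.97) and the authors' scaled values (0.98).

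The line effect in limma, over both shRNAs, passed an adjusted p of 0.05 in all 6 chemokines on the probes that stand for the genes, and in 27.7% of 17126 genes as higher in PC3 and 22.5% as lower. Of the 6, 5 were higher in PC3, and CXCL2 was called in opposite directions by its probes, since with each probe on its own limma called 7 of 8 higher and 1 lower. The effect was 7.17 log2 units for CXCL5 (limma adjusted p = 0.0035), 5.64 for CXCL1 (adjusted p = 0.0049), 5.53 for CXCL6 (adjusted p = 0.0021, and 3.96 under normexp) and 4.52 for CXCL3 (adjusted p = 0.0059). CXCL8 had an effect of 2.65 with a limma adjusted p of 0.047, and its call was lost with no filter on dim genes (0.15), quantile normalization (0.086) and the authors' scaled values (0.079). CXCL2 had one of −1.37 on its first probe with an adjusted p of 0.022, which was 0.68 with the mean of its probes. The PC3 arrays shared 1 slide and the DU145 arrays another, so line and slide cannot be told apart, while each knockdown comparison lay within 1 slide. In this fit the control and knockdown arrays of a line stood in for its replicates. The limma p-values for the line therefore do not measure spread between cultures of the same condition.

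The receptors that read these ligands, CXCR1 and CXCR2, and the scavenging receptor ACKR1 were not well above background on any array. For the counts in this and all later lists, the shares over all compared genes were 3.87% lower and 3.88% higher in PC3. In DU145 they were 2.47% lower and 2.36% higher. Of 13 other genes of the chromosome 4 region, 12 were well above background on at least 1 array. In PC3, 11 of them were compared, with 1 more than 2-fold lower and 4 more than 2-fold higher with ESS2 shRNA, and a median log2 ratio of 0.21. PPBP, the platelet member of the same ligand class, read 0.677 in PC3-shC and 3.26 in PC3-shESS2 cells (log2 ratio 2.27) and was not well above background in DU145, and it is not in the member counts. CXCL10 and CXCL11, interferon-induced ligands that attract T cells through CXCR3, had ratios of 2.21 and 2.89 in PC3 and were likewise not well above background in DU145. CXCL9, of the same kind, was at least 1.10 log2 units higher in PC3-shESS2 cells, and PF4V1, a platelet factor, at least 1.13 log2 units lower. In DU145, 6 of the region's genes were compared, with 2 lower, BTC at −1.07 and PF4 at −1.98 or below, and a median of −0.56.

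Of 13 other CXC ligands and their receptors, a list that shares CXCL9, CXCL10, CXCL11 and CXCL13 with the region, 8 were compared in PC3, with 0 lower and 4 higher and a median of 0.58. The 4 were CXCL9, CXCL10, CXCL11 and CXCR4, the receptor of CXCL12, with a ratio of 3.92. In DU145, 6 were compared, with 0 lower and 1 higher, CXCL14 at 2.20, and the median was 0.39.

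Of 18 cytokines and receptors that induce the chemokines, 13 were compared in PC3, with 4 lower and 1 higher (median −0.051), and 11 in DU145, with 3 lower and 0 higher (median −0.086). IL1B, a main inducer, read 166.5 in PC3-shC and 10.9 in PC3-shESS2 cells, a log2 ratio of −3.93, and was not well above background in DU145. IL1A, the other interleukin-1 agonist, had a ratio of −2.20 in PC3 and was also not well above background in DU145. LTB, lymphotoxin β, which acts through LTBR on the alternative NF-κB pathway, was lower in both lines, by −3.32 in PC3 and −5.27 in DU145. TNF was near the background, and its ratio was −1.22 or below in PC3 and −2.13 or below in DU145. IL1R1, the signalling receptor of interleukin-1, had a ratio of 2.12 in PC3 and −0.12 in DU145 (0.65 on its other probe). OSM, a cytokine of the interleukin-6 family, was at −2.88 or below in DU145 on 1 probe and at 0.22 on another.

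All 16 NF-κB subunits, inhibitors and kinases were compared in both lines. In PC3 2 were lower and 1 higher (median −0.093), and in DU145 2 were lower and 0 higher (median −0.27). NFKBIA, the inhibitor IκBα, which NF-κB induces, read 124.5 and 54.4 in PC3-shC and PC3-shESS2 cells and 120.3 and 55.3 in DU145-shC and DU145-shESS2 cells, with log2 ratios of −1.20 and −1.12. NFKBIZ, a nuclear cofactor for a subset of NF-κB targets, had ratios of −1.62 in PC3 and −0.58 in DU145. TNFAIP3, the feedback inhibitor A20, had a ratio of 1.55 in PC3 and −2.38 in DU145. The subunits themselves had ratios between −0.51 and 0.25 in PC3 and between −0.86 and 0.12 in DU145.

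Among 12 other transcription factors at such promoters, 0 were lower in either line. FOSB at 1.49 or above and ATF3 at 2.58 (0.30 to 2.66 over its 4 probes) were higher in PC3, and FOS at 1.499, FOSB at 1.40 and JUNB at 1.06 were higher in DU145. The list medians were 0.28 and 0.20. Among 10 factors that destabilize or stabilize AU-rich mRNAs, 1 was lower in PC3, ZC3H12A at −2.47, an endonuclease of inflammatory mRNAs that is itself induced by interleukin-1, and it was at −0.76 in DU145. ZFP36, tristetraprolin, which binds AU-rich elements and speeds decay, was the 1 member higher in DU145, at 1.13, and was at 0.72 in PC3. The medians were −0.020 and −0.038.

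Of 10 other secreted factors tied to neutrophils, 7 of 9 compared were lower in PC3 and 1 was higher, with a median of −3.23, and in DU145 4 of 8 were lower and 2 higher, with a median of −1.26. LCN2, a siderophore-binding protein of neutrophil granules and epithelium, had log2 ratios of −3.25 in PC3 and −2.55 in DU145. CCL20, a CC chemokine that attracts CCR6-bearing cells, had ratios of −3.23 and −2.75. CSF2, which encodes GM-CSF, was at −2.65 in PC3 and at −3.74 or below in DU145. CSF3, which encodes G-CSF, the growth factor of neutrophils, read 27.4 in PC3-shC and 0.158 in PC3-shESS2 cells, a ratio of −7.43, and was not well above background in DU145. C3, the central complement component, had ratios of −3.44 and −0.81. S100A9, a subunit of calprotectin, had ratios of −2.51 in PC3 and 1.75 in DU145. S100A8, the other calprotectin subunit, had −3.25 in PC3 and was not well above background in DU145. CCL2, a monocyte attractant, was at −1.70 or below in DU145 and was not well above background in PC3. IL6 went the other way in both lines, at 2.62 in PC3 (0.63 on its other probe) and 2.48 in DU145 (0.37 on its other probe).

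**Figure D4:**
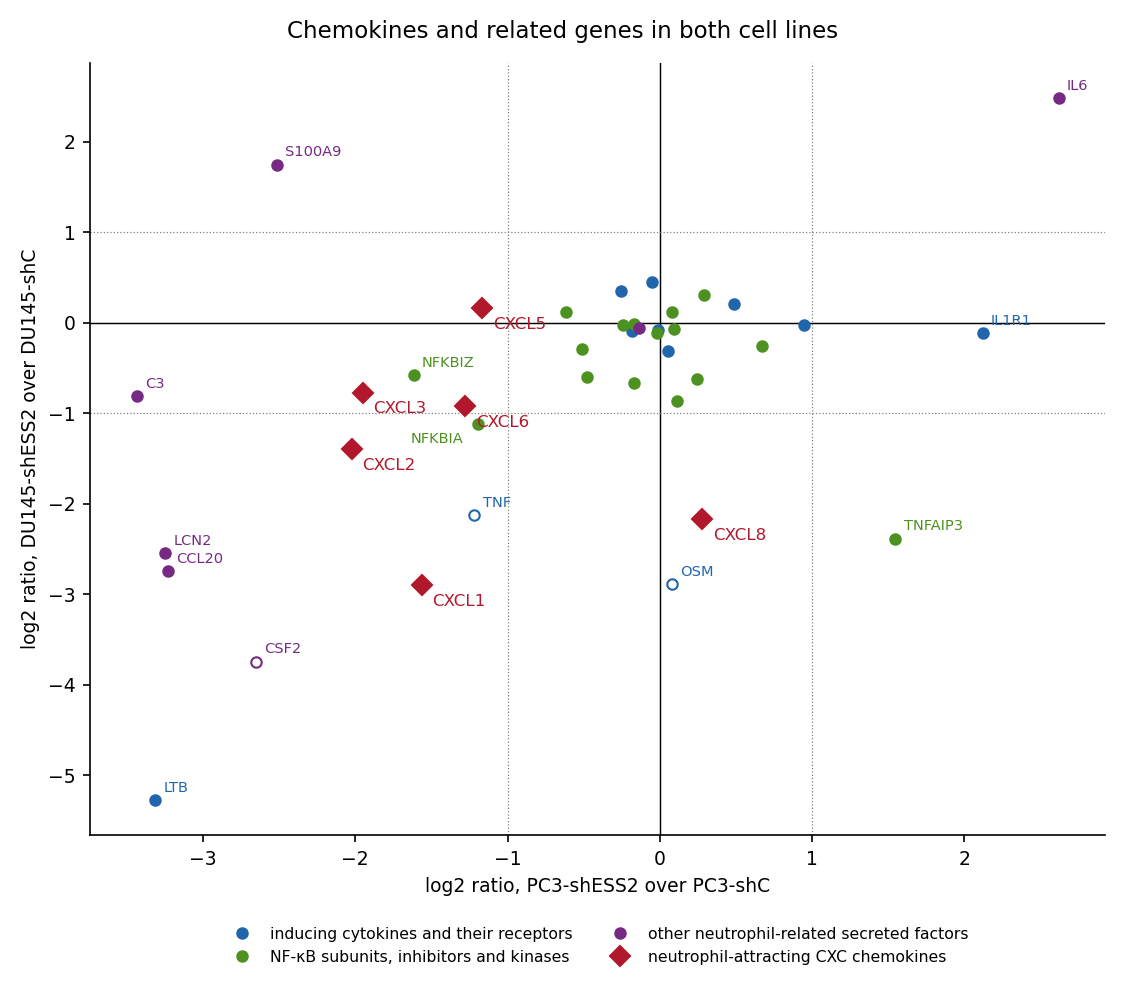
Each point is a gene compared in both cell lines, placed by its log2 ratio of ESS2 shRNA over control in PC3 (horizontal) and in DU145 (vertical), with dotted lines at a 2-fold difference, open points where a ratio is a lower bound on the size of the difference, and names for related genes past 2-fold in either line. CXCL1 and CXCL2 lie past the lower line in both cell lines with LCN2, CCL20, CSF2, LTB, TNF and NFKBIA, CXCL8 lies past the lower line in DU145 alone, TNFAIP3 lies past 2-fold in opposite directions, and IL6 lies at the upper right.

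Markers of leukocytes, which could bring such genes into a culture, were read from the same arrays. Of 10 leukocyte markers matched, 6 were well above background on at least 1 array, and their summed level was 2.83 in PC3-shC, 0.975 in PC3-shESS2, 1.48 in DU145-shC and 2.0 in DU145-shESS2 cells. In PC3 3 of 6 compared were more than 2-fold lower, S100A12 at −2.74, CD14 at −2.16 and TYROBP at −1.18, and 0 were in DU145. MPO, ELANE, CD3E and MS4A1, defining genes of neutrophils, T cells and B cells, were not well above background on any array, and PTPRC, the common leukocyte antigen, had ratios of −0.13 in PC3 and 0.10 in DU145. The part of these markers in the chemokine values was not tested. Of 4 markers of fibroblasts and endothelium, 1 of 3 compared was lower in PC3, PECAM1 at −4.51 (−1.34 on another probe), and 0 in DU145.

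The genes whose pattern over the 4 arrays was most like the mean of the 6 members were found by the distance between log2 values centred on each gene's own mean, among 14680 genes that all 4 arrays detected above background. The nearest were OAS3 at a distance of 0.52, ENC1 at 0.56, GALNT6 at 0.65, LOXL1-AS1 at 0.70 and MTARC1 at 0.72. With the second CXCL2 probe in the mean, an alternative chosen after seeing the data, 2 of these 5, GALNT6 and OAS3, were again among the nearest 5, joined by PLAC8, HSH2D and SLC1A3. CXCL2 lay 5.42 from the mean of the members with its first probe and 3.37 with its second, and CXCL3 lay 0.79 and 0.63 from it. OAS3 read 10.4 in PC3-shC, 2.62 in PC3-shESS2, 0.462 in DU145-shC and 0.214 in DU145-shESS2 cells. With 4 arrays this is a description of order and fold and says nothing of shared control.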

How the data were processed

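RNA from 4 conditions was measured on 4 one-colour (Cy3) Agilent arrays from 0.1 µg of total RNA each. The authors deposited the scanner output of Feature Extraction (12.1.0.3 for PC3, 12.0.3.1 for DU145, with hg19 in the file headers), in which the intensity of each spot is background-subtracted and not scaled between arrays, and a table of scaled intensity values, each column of which equals the processed signal times 1 constant within 0.5%. The authors' software was GeneSpring, with settings not given in the sources used here, so each array was scaled to its own 75th percentile of non-control spots. Spots flagged as outliers were left out and spots of a probe averaged.

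Accessions were matched to RefSeq symbols (GRCh38.p14), which named 35080 of 58201 probes. Of several probes of a gene, the one with the highest mean stood for it. Comparison of a gene required detection above background by 1 or both of the arrays set against each other, a dim value was raised to the lowest signal well above background, and the ratio was then given as a bound. The number of arrays, 1 per condition, limits the precision.

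limma was fitted to the genes detected by 2 or more arrays, additive in line and shRNA, two-sided, and p-values were adjusted by Benjamini-Hochberg with a threshold of 0.05. Named are all 6 members, ESS2 and reference genes, and, from 8 lists of related genes and 4 lists of markers, those past 2-fold in either line or leading a role. Another marker list is not reported here. The members and lists were chosen with earlier results of these data known. The calculations were tested on simulated data. Alternatives in scaling, background correction with normexp (offset 50), filter, probes and source of values were run. The tools were limma 3.58.1 in R 4.3.3 and, in Python 3.11.15, numpy 2.4.6, pandas 2.3.3, Biopython 1.88 and matplotlib 3.10.9.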

Additional observations from a re-analysis of the deposited data

Results flagged for a closer look

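CXCL5 and CXCL8 had log2 ratios (ESS2 shRNA over control) of opposite sign in the 2 cell lines, and the difference was not tested. The log2 ratio of CXCL5 was −1.16 in PC3 and 0.16 in DU145, where the value lay within its scanner error of 0. The log2 ratio of CXCL8 was 0.28 in PC3, with a scanner error of 0.20, and −2.17 in DU145.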

How the results depend on the processing

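Over the log2 ratios of the members and their second probes, 210 values were recomputed under the alternatives, and 209 kept their sign. The exception was CXCL2 between the control cells, where the mean of its probes gave 0.17 in place of −1.05. Of the values that kept their sign, 29 moved by more than their scanner error. Many of the recomputed values could not change, because every member probe was well above background without an outlier flag on every array. The alternatives for the filter, dim values and outlier spots therefore returned the main ratios. So did the mean of the probes for genes with a single probe. The share that kept its sign is thus no measure of stability. Counting each probe on its own, 5 of 8 probes were more than 2-fold lower in DU145, against 3 of 6 genes. In limma the knockdown called 0 members and 0 genes under every alternative run, including no block for the cell line. The line effect in CXCL2 lost its call without a term for the shRNA (adjusted p = 0.23), with no filter on dim genes (0.07) and with the mean of the probes (0.68), and that in CXCL8 with no filter (0.15), quantile normalization (0.086) and the authors' scaled values (0.079).

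The labels carry no replicate numbers to pair by beyond the cell line, which the limma fit already uses as a block, and leaving out an array leaves no residual degree of freedom. The shares over all genes depended on the background correction. With normexp, 1.93% of compared genes were more than 2-fold lower and 1.48% higher in PC3, and 0.458% lower and 0.826% higher in DU145. CXCL6 in DU145 changed from −0.92 to −0.40 under normexp, the alternative that moved it most.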
